A study of Mus musculus with 6 samples.

Results

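Complex I of the respiratory chain (NADH:ubiquinone oxidoreductase) was examined through its nuclear subunit genes, taken as the rows of the expression table whose symbol starts with Nduf, then a, b, c, s or v, then a number. Of 23474 rows, 37 matched, and all 37 had a mean of at least 1 FPKM (fragments per kilobase of transcript, scaled to the mapped fragments of the library) over the 6 libraries. Of these, 35 encode subunits of complex I, 7 core and 28 accessory. The other 2, Ndufa4 and Ndufa4l2, carry the name but are not subunits of the complex (Ndufa4 belongs to complex IV and Ndufa4l2 is its paralog), so they are described apart. The lowest of the 37 was Ndufa4l2, and none of the matched rows lay under 1 FPKM.

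The series measured liver mRNA of male C57BL/6J mice by RNA sequencing. In the BT group, 10 mice received a high-fat diet with 1.5% (w/w) Bangpungtongseong-san extract, a multi-herb preparation. In the HFD group, 10 mice received the high-fat diet alone. Both diets ran for 12 weeks from 5 weeks of age, the livers were of 17-week-old mice, and each group has 3 libraries. No group on a normal diet is among the samples. Whether each library holds RNA of 1 mouse or of a pool is not stated, and the p-values therefore measure only the spread among 3 libraries per diet, which may be technical.

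Complex I passes electrons from NADH to ubiquinone and pumps protons across the inner mitochondrial membrane. Its core subunits are conserved from bacteria: the nuclear ones form the peripheral arm, which holds the flavin, the iron-sulfur clusters and much of the quinone site, and the mitochondrial genome encodes the proton-pumping ones of the membrane arm. Accessory subunits surround this core in both arms and serve assembly and stability. The liver uses the respiratory chain to reoxidise the NADH made by fatty acid oxidation.

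Library depth, estimated from the value of 1 fragment, was about 14.0 to 15.1 M fragments in BT and 13.8 to 15.8 M in HFD, and FPKM sums ran from 783151 to 930139, highest in HFD replicate 2. By this estimate a subunit rested on 53.2 to 4865 fragments per library. Hepatocyte markers summed to 33197 to 35757 FPKM in BT and 12299 to 43466 FPKM in HFD, the low end being HFD replicate 3, where Alb is listed at 0. Summed markers of stellate cells were 66.5 to 85.1 FPKM in BT and 88.0 to 131 FPKM in HFD. Of the 6 hepatocyte markers, 3 had a negative and 3 a positive change as deposited (median 0.18). The positive ones include Alb, whose change of 4.90 rests on the 0 in HFD replicate 3. Only transthyretin, Ttr, passed the test. Ttr fell by 0.76 (adjusted p = 0.0157). Its change was -0.66 (adjusted p = 0.0251) after removal of each library's dependence on transcript length and GC content. As deposited, no gene of the stellate, Kupffer cell, endothelial, bile duct, leukocyte, fat, muscle or pancreas lists passed the test, and the pancreas markers were at 0 in all 6 libraries. After that removal the stellate marker Reln fell by 0.44 (adjusted p = 0.0364). The part of cell makeup in the subunit values was not tested. Fewer cells of a type and less RNA per cell cannot be told apart in bulk liver. The library codes share a letter within each diet and differ between the diets, so library set and diet cannot be told apart.

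Most complex I subunit mRNAs were lower in BT than in HFD livers. Of the 35 subunits, 26 fell at an adjusted p under 0.05 in limma and none rose, against 7.33% of the 10476 genes tested that fell and 6.01% that rose. At an unadjusted p under 0.05, 30 subunits were lower and 1, Ndufs1, was higher. Of all 10476 genes tested, 1506 were lower and 1891 higher at that threshold. The median log2 change, BT minus HFD on the log2(FPKM + 1) scale used for every change here, was -0.60 over the subunits and 0.07 over all genes tested. All 3 BT libraries lay below all 3 HFD libraries for 30 subunits, against 16.1% of all genes. The reverse held for Ndufs1, against 23.2% of all genes, and the groups overlapped for Ndufs3, Ndufv1, Ndufa9 and Ndufs4.

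Core and accessory subunits stood as follows: 3 of 7 core subunits fell, with a median change of -0.40, and 23 of 28 accessory subunits fell, with a median of -0.64. All 28 accessory values were negative, from -1.19 to -0.17. The order of abundance was much the same in both diets (Spearman's rho of BT and HFD mean FPKM 0.94 over 35 genes of the same libraries). Ndufa3 had the highest mean level, 332 FPKM over all 6 libraries, Ndufa11 the lowest, 9.86 FPKM, and 20 subunits had 100 FPKM or more.

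**Figure D1:**
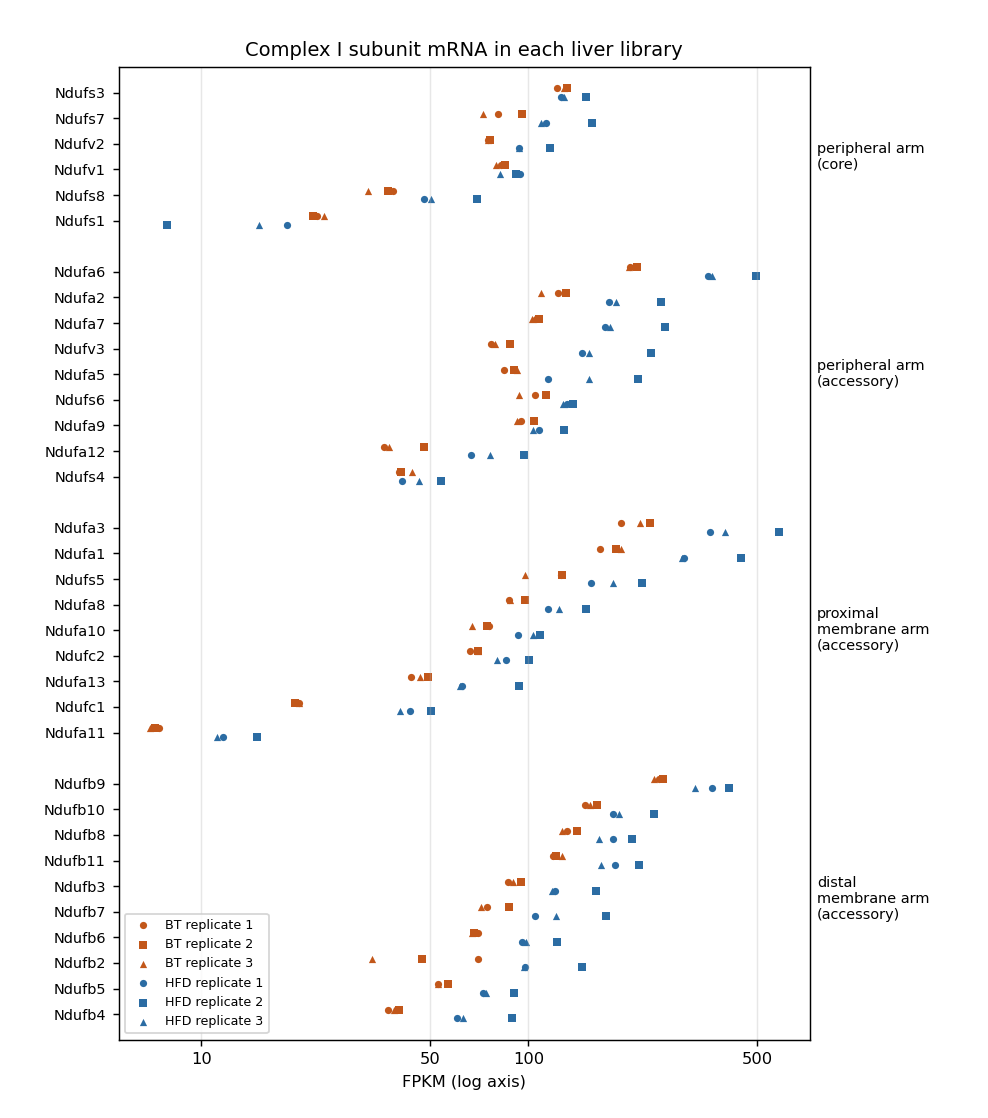
Level of 34 complex I subunit mRNAs in FPKM (log axis), 1 point per library, BT above HFD within each gene, grouped by arm and by core or accessory role. For 29 of the 34 genes every BT point lies left of every HFD point, and HFD replicate 2 is the rightmost point for 32 genes.

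Of the core subunits, Ndufs7, Ndufs8 and Ndufv2 fell. Ndufs7, which carries the iron-sulfur cluster next to the quinone site, measured 80.9, 95.7 and 72.7 FPKM in BT libraries 1 to 3, against 113, 156 and 109 FPKM in HFD libraries 1 to 3. It fell by 0.59 ± 0.16 (limma SE; adjusted p = 0.0471), with no overlap between the groups. Ndufs8, a carrier of further iron-sulfur clusters, measured 38.6, 37.1 and 32.4 FPKM in BT, against 47.8, 69.7 and 50.3 FPKM in HFD. It fell by 0.60 ± 0.15 (adjusted p = 0.0385). Ndufv2, an iron-sulfur subunit beside the flavin site, measured 75.3, 76.4 and 75.4 FPKM in BT, against 93.5, 117 and 93.3 FPKM in HFD, and fell by 0.40 ± 0.11 (adjusted p = 0.0491). These 3 calls sit near the threshold, and the highest adjusted p with 1 library left out was 0.145 for Ndufs7, 0.104 for Ndufs8 and 0.156 for Ndufv2.

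Ndufs3, Ndufv1 and Ndufs1 did not pass the test. Ndufs3, a structural core subunit of the peripheral arm, averaged 127 ± 4.49 FPKM in BT and 135 ± 12.9 FPKM in HFD (SD, n = 3 each), a change of -0.08 ± 0.10 (adjusted p = 0.632). Ndufv1, which binds the flavin and NADH, averaged 82.3 ± 2.86 FPKM in BT and 89.3 ± 6.79 FPKM in HFD, a change of -0.11 ± 0.10 (adjusted p = 0.455). For Ndufs3 and Ndufv1 the groups overlapped.

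Ndufs1 (chromosome 1, 63143596 to 63176833, minus strand, GRCm38), the largest core subunit of the peripheral arm and holder of several iron-sulfur clusters, had the only positive change. It measured 22.6, 21.9 and 23.7 FPKM in BT, against 18.2, 7.84 and 15.0 FPKM in HFD. The BT values lay close together and above all HFD values, with HFD replicate 2 far below the other HFD libraries. The change was 0.76 ± 0.25 (adjusted p = 0.0758), and it passed the threshold only in the fit without HFD replicate 1 among those that left out 1 library. Relative to Ndufv1, its FPKM was 27.3%, 25.8% and 29.9% in BT, against 19.3%, 8.55% and 18.4% in HFD, a ratio chosen after the values were seen.

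Among the accessory subunits of the peripheral arm, 6 of 9 fell, with a median change of -0.81. For scale, 7.33% of all genes tested fell, and 27.9% of those with a transcript under 1000 bases. Ndufa6 (chromosome 15, 82350140 to 82354322, minus strand, GRCm38), which binds the mitochondrial acyl carrier protein, measured 205, 214 and 203 FPKM in BT, against 354, 497 and 365 FPKM in HFD. It fell by 0.95 ± 0.14 (adjusted p = 0.00897). Ndufv3, a small subunit near the flavin end, measured 77.1, 87.8 and 79.3 FPKM in BT, against 146, 237 and 153 FPKM in HFD, and fell by 1.09 ± 0.18 (adjusted p = 0.0121). Both genes showed a tight BT group and an HFD group whose second library stood highest.

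Relative to Ndufv1, the FPKM of Ndufv3 was 93.4%, 103% and 99.96% in BT, against 154%, 259% and 187% in HFD, again a ratio chosen after the values were seen. Ndufa12, which lies close to the joint of the arms, measured 36.3, 48.0 and 37.5 FPKM in BT, against 66.8, 97.0 and 76.5 FPKM in HFD, and fell by 0.96 ± 0.16 (adjusted p = 0.013). Ndufa7 fell by 0.92 ± 0.16 (adjusted p = 0.0143). Ndufa5 fell by 0.81 (adjusted p = 0.0373), and Ndufa2, which has a thioredoxin-like fold, fell by 0.74 (adjusted p = 0.0203).

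The remaining 3 peripheral accessory subunits did not pass. Ndufs4, whose loss in mice and people impairs complex I, measured 40.1, 40.9 and 44.1 FPKM in BT, against 41.1, 54.0 and 46.5 FPKM in HFD, a change of -0.17 ± 0.12 (adjusted p = 0.359) with overlapping groups. Ndufa9, which binds NADPH near the quinone site, changed by -0.22 (adjusted p = 0.221), and the zinc-binding Ndufs6 by -0.35 (adjusted p = 0.0614).

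In the proximal membrane arm, 8 of 9 accessory subunits fell, against 7.33% of all genes tested, with a median change of -0.67. Ndufc1 (chromosome 3, 51404677 to 51408988, minus strand, GRCm38), a short single-pass subunit, had the smallest adjusted p of all 35 subunits. It measured 19.9, 19.3 and 19.8 FPKM in BT, against 43.6, 50.5 and 40.5 FPKM in HFD, so that the BT mean was 43.9% of the HFD mean. It fell by 1.14 ± 0.11 (adjusted p = 0.00207). Its neighbour Ndufc2 was the member of this arm that did not pass: it measured 66.3, 70.1 and 70.3 FPKM in BT, against 85.5, 100.5 and 80.5 FPKM in HFD, a change of -0.36 (adjusted p = 0.0635). Ndufc1 stood at 30.1%, 27.6% and 28.2% of Ndufc2 in BT, against 51.0%, 50.3% and 50.3% in HFD, a ratio likewise chosen after the values were seen.

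Ndufa3, another single-pass subunit, with the highest mean level of the 35 over all 6 libraries, measured 192, 235 and 219.7 FPKM in BT, against 360.2, 583 and 399.6 FPKM in HFD, and fell by 1.02 ± 0.18 (adjusted p = 0.0142). Ndufa1 averaged 181 ± 13.6 FPKM in BT and 347 ± 86.6 FPKM in HFD (SD, n = 3 each) and fell by 0.91 ± 0.17 (adjusted p = 0.0155). Ndufa11, with the lowest mean level of the 35, measured 7.42, 7.21 and 6.97 FPKM in BT, against 11.6, 14.7 and 11.2 FPKM in HFD, and fell by 0.71 ± 0.13 (adjusted p = 0.0142). Among the 35 nuclear subunits, those of highest and lowest mean level thus both fell, without overlap between the groups.

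Ndufa10, a subunit with a nucleoside kinase-like fold, measured 75.6, 74.8 and 67.1 FPKM in BT, against 93.0, 108 and 103 FPKM in HFD. It fell by 0.48 ± 0.10 (adjusted p = 0.0255). Ndufs5 and Ndufa8, which face the intermembrane space, fell by 0.67 (adjusted p = 0.0325) and by 0.50 (adjusted p = 0.0338). Ndufa13, also known as GRIM-19, fell by 0.61 (adjusted p = 0.0433).

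In the distal membrane arm, built by the Ndufb subunits, 9 of 10 fell, against 7.33% of all genes tested, with a median change of -0.57. After removal of the length and GC trend, 2 of the 10 fell, with a median of -0.33. Ndufb2 had the most negative change of the 35 subunits, and its BT libraries lay far apart: it measured 70.2, 47.4 and 33.3 FPKM in BT, against 97.9, 146 and 96.7 FPKM in HFD. It fell by 1.19 ± 0.26 (adjusted p = 0.0258), a call lost without BT replicate 2, BT replicate 3 or HFD replicate 2. Ndufb9, which also binds an acyl carrier protein, averaged 250.5 ± 7.51 FPKM in BT and 366 ± 43.2 FPKM in HFD (SD, n = 3 each), and fell by 0.54 ± 0.11 (adjusted p = 0.0231). Ndufb4 measured 37.2, 40.3 and 38.8 FPKM in BT, against 60.6, 89.0 and 63.2 FPKM in HFD, and fell by 0.84 ± 0.15 (adjusted p = 0.0146).

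The other 6 that fell were Ndufb11, Ndufb7, Ndufb6, Ndufb3, Ndufb5 and Ndufb8. Ndufb11, an X-linked subunit, measured 119, 122 and 126 FPKM in BT, against 184, 218 and 167 FPKM in HFD, and fell by 0.62 (adjusted p = 0.0171). Ndufb7, which faces the intermembrane space, fell by 0.73 (adjusted p = 0.0349), and Ndufb8, a common marker of complex I in protein blots, fell by 0.46 (adjusted p = 0.0366). Ndufb10 did not pass, with a change of -0.38 (adjusted p = 0.0776).

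**Figure D2:**
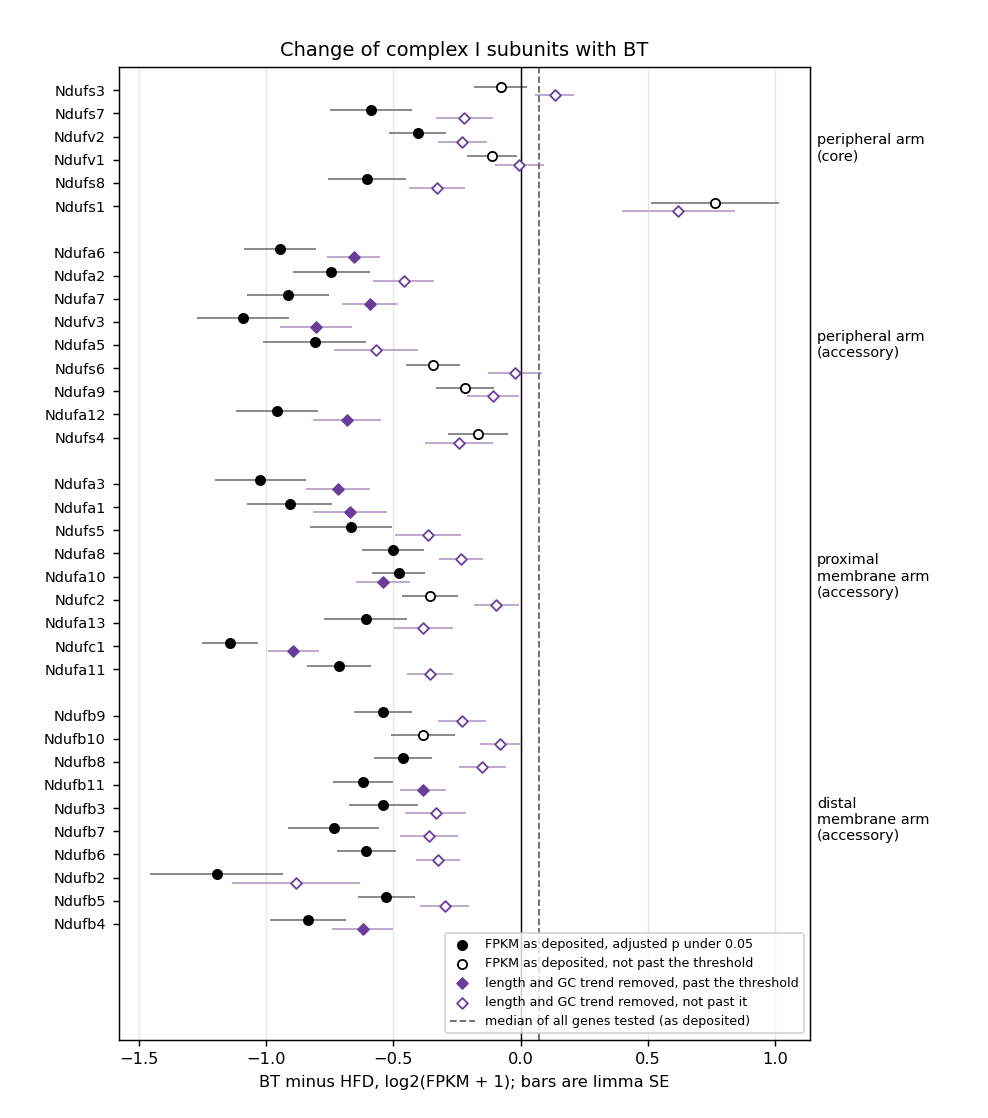
Change of 34 subunits, BT minus HFD, on the log2(FPKM + 1) scale with limma SE bars; circles are the values as deposited, diamonds the values after removal of the trend on length and GC content, and filled symbols have an adjusted p under 0.05. As deposited, 26 filled circles lie left of 0 and Ndufs1 alone lies right of it; 10 diamonds are filled, all of them accessory subunits.

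The promoters of Ndufc1, Ndufa6 and Ndufs3 are shown because the first 2 were called in every fit that left out 1 library, and Ndufs3 had the core value nearest 0. Each window runs from 250 bases before to 50 bases after the RefSeq start (GRCm38.p6), is printed 5′ to 3′ along the gene, and has any motif found in capitals. The Ndufc1 window is chr3:51408906-51409205, the Ndufa6 window chr15:82354242-82354541 and the Ndufs3 window chr2:90904672-90904971, all on the minus strand.
Ndufc1: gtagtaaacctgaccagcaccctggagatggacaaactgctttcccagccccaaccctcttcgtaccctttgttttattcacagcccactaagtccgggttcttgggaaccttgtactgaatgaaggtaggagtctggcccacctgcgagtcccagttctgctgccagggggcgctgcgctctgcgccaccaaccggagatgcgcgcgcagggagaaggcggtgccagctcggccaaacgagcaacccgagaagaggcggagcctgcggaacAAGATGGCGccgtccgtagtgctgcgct
Ndufa6: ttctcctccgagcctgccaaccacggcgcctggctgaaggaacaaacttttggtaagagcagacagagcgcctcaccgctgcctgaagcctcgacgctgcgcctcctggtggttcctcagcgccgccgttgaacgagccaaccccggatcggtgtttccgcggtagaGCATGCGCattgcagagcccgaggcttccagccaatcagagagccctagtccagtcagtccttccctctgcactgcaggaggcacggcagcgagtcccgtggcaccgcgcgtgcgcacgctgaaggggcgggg
Ndufs3: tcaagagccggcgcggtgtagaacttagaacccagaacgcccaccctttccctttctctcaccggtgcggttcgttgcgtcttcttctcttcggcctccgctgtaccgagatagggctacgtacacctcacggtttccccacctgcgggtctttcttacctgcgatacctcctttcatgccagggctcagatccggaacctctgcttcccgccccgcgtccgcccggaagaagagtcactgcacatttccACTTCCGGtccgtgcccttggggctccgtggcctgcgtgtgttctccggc
The capitals mark a YY1 motif (AAGATGGCG) 22 bases after the start in Ndufc1, an NRF1 motif (GCATGCGC) 83 bases before it in Ndufa6, and an ETS motif (CCGGAAGT, on the other strand as ACTTCCGG) at the start of Ndufs3.

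YY1, NRF1, ETS-family GABP and the ERR receptors are known regulators of nuclear respiratory chain genes. The 4 motifs were searched as exact letters on both strands in 33 windows of 31 subunits, and 12 subunits held at least 1. A match is of letters only, and whether a site is bound was not tested. The YY1 letters include ATG, the letters of a start codon. The YY1 letters were found in 16.1% of subunits (Ndufc1, Ndufs7, Ndufa9, Ndufs6 and Ndufs4), against 3.91% of genes tested and 1.64% of all genes with a window. In those 5 genes they lay 22 to 35 bases after the start on the gene's own strand. Of the 5, 2 fell, against 26 of 35 subunits and 7.33% of all genes tested. The NRF1 letters were found in 9.68% of subunits (Ndufa6, Ndufa8 and Ndufa11, whose 2 matches overlap), against 6.18% and 3.05%. The ETS letters were found in 3.23% of subunits (Ndufs3), against 9.91% and 4.31%. The ERR letters (AAGGTCA) were found in 9.68% (Ndufb2, Ndufb4 and Ndufs5), against 4.37% and 5.38%. Every gene named here for the NRF1 or ERR letters fell, while Ndufs3 did not pass. The relation of motifs to changes was not tested.

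Most subunits had the same library at the high end. The median deviation of the 35 subunits from their gene means was -0.30, -0.21 and -0.33 in BT libraries 1 to 3, against 0.15, 0.56 and 0.18 in HFD libraries 1 to 3. HFD replicate 2 was the highest library for 33 of 35 subunits and the lowest for 1, Ndufs1, and the SD was larger in HFD than in BT for 34. All genes tested also varied more among HFD libraries. The SD of their log2 differences between pairs of libraries was 0.38 to 0.41 within HFD and 0.24 to 0.31 within BT. Without HFD replicate 2, 16 of 35 subunits fell (all accessory), against 3.82% of all genes, and none rose, against 2.11%. The median changes were then -0.44 over all subunits, -0.28 over core and -0.52 over accessory subunits. No core subunit was then called, with 4 lower and 1 higher at an unadjusted p under 0.05. Of all 10476 genes tested, 1323 were lower and 1377 higher at that threshold without HFD replicate 2. Fewer subunits also passed without a BT library: the count was 3 with BT replicate 1 left out, 7 with BT replicate 2 left out and 10 with BT replicate 3 left out. Over all 10476 genes tested, 173, 324 and 589 were called in either direction in these fits, against 1398 with all 6 libraries. Only Ndufc1 and Ndufa6 were called in each of the 6 fits that left out 1 library, with highest adjusted p-values of 0.0158 and 0.0479, while 34 subunits had a negative change in all 6.

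The core and accessory medians differed in each library. Accessory minus core was -0.12, -0.15 and -0.14 in BT, against 0.07, 0.18 and 0.20 in HFD. After removal of the length and GC trend these values were -0.16, -0.16 and -0.07 in BT, against 0.03, 0.17 and 0.13 in HFD. All BT values lay below all HFD values on both scales. Among single genes as deposited, all 3 BT libraries lay below all 3 HFD libraries for 16.1% and above them for 23.2%. Core and accessory transcripts differ in length (medians 1046 and 611 bases). The subunits' change still moved with transcript length after the removal (Spearman's rho 0.51). The difference between core and accessory subunits was not tested.

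**Figure D3:**
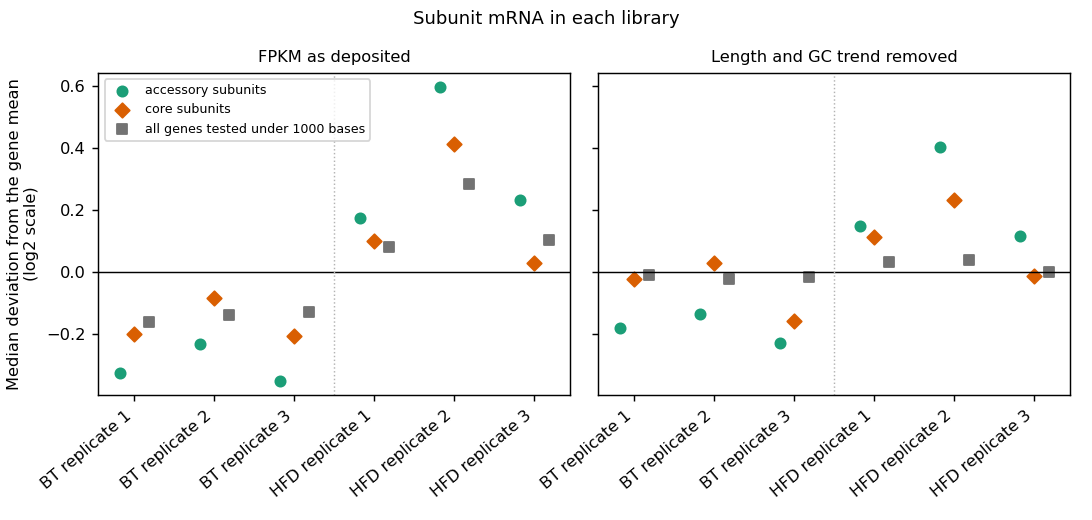
Median deviation from the gene mean (log2 scale) in each library for accessory subunits, core subunits and all genes tested with a transcript under 1000 bases, as deposited (left panel) and after removal of the length and GC trend (right panel). As deposited, all 3 BT libraries lie below 0 and all 3 HFD libraries above it for every set, with HFD replicate 2 highest. With the trend removed the short genes lie close to 0, which follows from the removal itself, as the trend was fitted over all genes. The accessory subunits keep BT below HFD there, while the core medians overlap (0.03 in BT replicate 2, -0.01 in HFD replicate 3).

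Transcript length moved with the change. Over all 10403 genes with an annotated length, Spearman's rho of change and transcript length was 0.44, and it was 0.68 over the 35 subunits, whose transcripts are short (315 to 2590 bases, median 680). Accessory transcripts had a median of 611 bases and core transcripts one of 1046 bases. Of all 1429 genes tested under 1000 bases, 27.9% fell, and 24 of the 27 subunits under 1000 bases did. All genes in this length range had median deviations of -0.16, -0.14 and -0.13 in BT, against 0.08, 0.28 and 0.10 in HFD, with HFD replicate 2 highest as in the subunits.

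The subunits' medians lay below those of all genes of like length in the 2 classes that hold most of them. Under 700 bases, the 18 subunits had a median change of -0.78 and 16 fell, against -0.38 and 36.4% for all 583 genes. From 700 to under 1000 bases, the 9 subunits had a median of -0.54 and 8 fell, against -0.22 and 22.0% for all 846 genes. Of the 8 subunits of 1000 bases or more, 2 fell, Ndufa10 and Ndufa13. Of all genes, 12.3% fell from 1000 to under 1500 bases, where Ndufa13 lies, and 3.73% from 1500 to under 2500 bases, where Ndufa10 lies. Ndufs1 has the longest transcript, 2590 bases, and its change of 0.76 stands beside a median of 0.13 for all genes from 2500 to under 4000 bases.

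**Figure D4:**
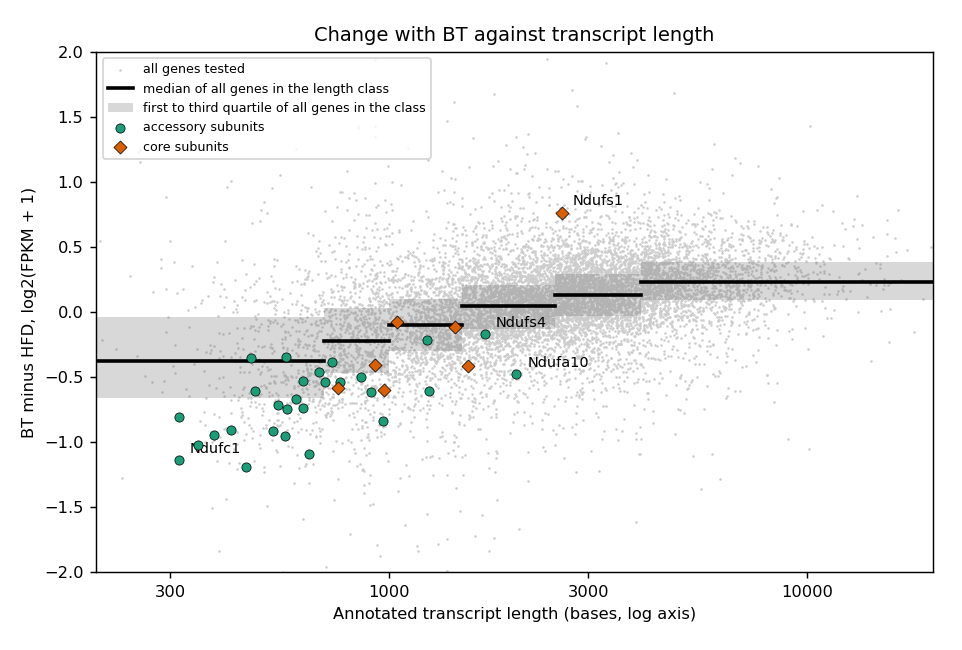
Change, BT minus HFD on the log2(FPKM + 1) scale, against annotated transcript length (log axis) for all genes tested (grey points) with core and accessory subunits on top; black lines and grey bands give the median and the range between the quartiles of all genes in each length class, and genes beyond 2 in either direction are not shown. The class medians run from -0.38 under 700 bases to 0.23 at 4000 bases or more, and most subunits under 1000 bases lie below the median of their class.

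With the dependence on length and GC content taken out of every library by splines, 10 of 35 subunits fell and none rose, against 5.32% of 10403 genes that fell and 4.08% that rose. All 10 are accessory subunits and all were also called as deposited: Ndufc1, Ndufa6, Ndufv3, Ndufa3, Ndufa12, Ndufa7, Ndufb4, Ndufa1, Ndufa10 and Ndufb11. By arm, 4 of 9 peripheral accessory (median -0.57), 4 of 9 proximal (median -0.38) and 2 of 10 distal subunits (median -0.33) fell. The median change was then -0.36 over all subunits, -0.22 over core and -0.37 over accessory subunits, and 33 of 35 values were negative. Of the 27 subunits under 1000 bases 9 fell on this scale, against 11.1% of all genes of that length. Over the 35 subunits the change still moved with transcript length on this scale (Spearman's rho 0.51, against 0.68 as deposited). At an unadjusted p under 0.05, 25 subunits were lower and 1 was higher on this scale, among them 3 core subunits lower and 1 higher. Of all 10403 genes, 1560 were lower and 1471 higher at that threshold.

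Ndufc1 then fell by 0.89 (adjusted p = 0.00733) and Ndufa6 by 0.66 (adjusted p = 0.0155). Ndufa10, with a transcript of 2020 bases, is the called subunit whose change was larger on this scale: it fell by 0.54 (adjusted p = 0.0251), against a change of -0.48 as deposited. Ndufs3 had 0.13 on this scale (adjusted p = 0.293), the sign opposite to its value as deposited. The core subunits Ndufs7, Ndufs8 and Ndufv2 had changes of -0.22 (adjusted p = 0.242), -0.33 (adjusted p = 0.0983) and -0.23 (adjusted p = 0.16). Ndufs1 had 0.62 (adjusted p = 0.113). The part of length in the calls lost on this scale was not tested.

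Partners of the complex outside the 35 genes were read from the same fit. Ndufab1, the mitochondrial acyl carrier protein and itself a subunit, measured 45.7, 51.1 and 55.7 FPKM in BT, against 76.9, 92.9 and 76.5 FPKM in HFD, and fell by 0.68 ± 0.12 (adjusted p = 0.0144). Of the 7 mitochondrially encoded core subunits none passed, with a median change of -0.23. This median includes mt-Nd4l, listed at 0 in BT replicate 2 and HFD replicate 2. At an unadjusted p under 0.05, 2 of the 7 were lower, against 1506 of all 10476 genes tested. Of 17 assembly factors tested, which build the complex but are not part of it, 2 fell and the median was 0.04. These were Ndufaf8, which fell by 0.64 (adjusted p = 0.0315), and Ndufaf3, which fell by 0.66 (adjusted p = 0.0416). Neither passed after removal of the length and GC trend, with -0.21 (adjusted p = 0.434) for Ndufaf8 and -0.57 (adjusted p = 0.0696) for Ndufaf3, and each passed in 1 of the 6 fits that left out 1 library.

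Complexes III, IV and V also held many nuclear subunits that fell. In complex III 6 of 9 fell (median -0.54) and in complex IV 9 of 11 (median -0.85). In complex V, the ATP synthase, 9 of 17 fell (median -0.54). These counts stand against 7.33% of all genes and 27.9% of genes under 1000 bases. The complex IV list was taken by Cox symbols, so Ndufa4 is not in it. Uqcrq of complex III fell by 1.19 (adjusted p = 0.00629), Cox5a of complex IV by 1.32 (adjusted p = 0.00127) and Atp5l of complex V by 0.88 (adjusted p = 0.00644). In complex II, which also serves the citric acid cycle, none of 4 passed (median -0.06), with 1 lower and 1 higher at an unadjusted p under 0.05. Of 15 genes of mitochondrial content and biogenesis, such as Cs, Tfam and Ppargc1a, none passed (median 0.13), with 2 lower and 2 higher at an unadjusted p under 0.05. Of all 10476 genes tested, 1506 were lower and 1891 higher at that threshold. As deposited, no gene of these lists rose. After removal of the length and GC trend, 4 genes of complex III, 8 of complex IV and 7 of complex V fell. The shares of all genes were then 5.32% that fell and 4.08% that rose, and 11.1% of genes under 1000 bases fell. On that scale Cs (-0.37, adjusted p = 0.0324) and Yy1 (-0.39, adjusted p = 0.0457) of the content and biogenesis list fell, with a list median of -0.01, while of the assembly factors Tmem70 fell (-0.32, adjusted p = 0.0447) and Dmac2 rose (0.48, adjusted p = 0.0299). The differences between lists were not tested.

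**Figure D5:**
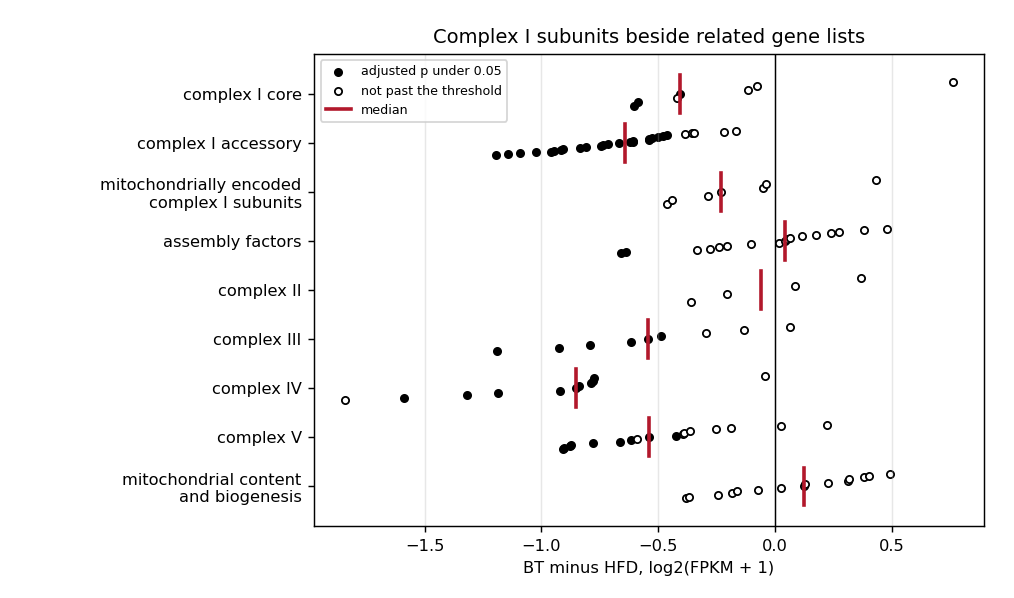
Change, BT minus HFD on the log2(FPKM + 1) scale, of each gene tested in complex I and in related lists; filled points have an adjusted p under 0.05 and red lines are medians. Filled points, all left of 0, make up 23 of 28 accessory subunits, 6 of 9 genes of complex III and 9 of 11 of complex IV, and there are none in complex II, the mitochondrially encoded subunits or the content and biogenesis list.

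The 2 matched genes that are not complex I subunits differed in level. Ndufa4 measured 764, 700.5 and 721 FPKM in BT, against 1089, 998 and 931 FPKM in HFD, above each of the 35 nuclear complex I subunits, and fell by 0.46 ± 0.11 (adjusted p = 0.0322). With the length and GC trend removed its change was -0.23 (adjusted p = 0.195). Ndufa4l2, a hypoxia-responsive paralog, measured 1.37, 1.69 and 1.16 FPKM in BT, against 0.857, 2.14 and 1.62 FPKM in HFD, with overlapping groups and a change of -0.05 (adjusted p = 0.879).

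Some values are less certain for reasons of counting. Ndufb11, Ndufs5, Ndufs3, Ndufs6 and Ndufa12 each have a near-identical copy elsewhere in the annotation, with which reads could be shared. Exons of other genes overlap 39.0% of Ndufb6 and 30.0% of Ndufa13, and no strand setting is given in the sources used here. Of these 7 genes, Ndufs3 and Ndufs6 were not called.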

How the data were processed

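Liver RNA of 6 libraries was sequenced after TruSeq preparation, per the labels. The authors deposited FPKM per gene, 1 column per library; all 6 columns were used, and no counts came with them. Cufflinks 2.1.1, STAR 2.4.0 and CASAVA 1.8.2 are named, without their roles, in the submitters' processing notes. Groups came from the sample titles. The build, annotation and strandedness were not given in the sources used here.

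The 10476 genes whose mean reached 1 FPKM entered the test as log2(FPKM + 1), with limma 3.58.1 in R 4.3.3 (a variance trend, 4 residual degrees of freedom, two-sided, Benjamini-Hochberg adjustment over all genes tested, threshold 0.05), and the calculation was tested on simulated data. The simulation changed 200 of 10476 genes. It recovered 1.0% of changes of 0.5 on the log2 scale, 97.0% of changes of 1 and 99.5% of changes of 2. In the data 1398 genes were called, so these shares need not hold there. A fold change on the log2(FPKM + 1) scale understates the change of low genes. An exact permutation test of 3 against 3 libraries cannot go below p = 0.1, so none was used. Errors of levels are SD over 3 libraries. Names and transcript lengths came from GENCODE M21 (GRCm38), which named 22671 rows; the transcript is the one of median length. The trend of each library on length and GC content was removed with natural splines (5 degrees of freedom each). Near-identical copies were found with BLAST 2.17.0 (95% identity over 50% of the transcript). Depth was estimated from the lowest cluster of FPKM times length and is rough.

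The members and lists were chosen with earlier results of these data known. Named are core subunits (1 is not reported here by name, but stays in the counts and medians), all accessory subunits called, the 4 of smallest p in each direction, those of highest and lowest level and up to 4 called genes of each related list by smallest p. The uncalled accessory subunits Ndufs4, Ndufa9, Ndufs6, Ndufc2 and Ndufb10, and Ttr, Reln, Cs, Yy1, Tmem70 and Dmac2, fall outside this rule and were named after their values were seen.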

Additional observations from a re-analysis of the deposited data

How the results depend on the processing

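In 16 alternative settings no called change turned its direction; among uncalled ones, Ndufs3 had a positive change under TPM scaling (0.01) and after removal of the length and GC trend (0.13), and Ndufa4l2 changed sign in 4 settings. A negative change was kept by 34 of 35 subunits in each fit without 1 library. The number of subunits that fell (26) was 13 with no filter on low values and 10 after removal of the length and GC trend; accessory calls (23) were 13 and 10, and core calls (3) were 0 in both. Core calls were 1 under median-of-ratios scaling, under quantile normalization and with no variance trend. With the trend removed, the median changes were -0.36 over all, -0.22 over core and -0.37 over accessory subunits. All genes called (1398) were 545 with no filter. Leaving out 1 library gave 173 to 1536 genes called, 3 to 24 subunits lower, 0 to 1 higher, 0 to 3 core and 3 to 22 accessory calls. Median-of-ratios scaling called 862 genes lower and 459 higher, against 768 and 630; TPM scaling moved the median of all genes to 0.15 and left 25 subunits called lower. The cause of these differences was not tested.

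Same-numbered BT and HFD libraries had deviations correlated at 0.16, 0.10 and 0.15, not all over 0.1, so the shared numbers are not taken as pairs; each BT library correlated best with its own number, which is a hint from the data and not the design. With the replicate block, 1808 genes were called, 27 subunits were lower (4 core) and 1 was higher, Ndufs1. Depth limits Ndufa11 most, and Ndufb2 had the largest SD relative to its mean among BT libraries.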
